A study of Mus musculus with 6 samples.

Results

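The 39 Hox cluster genes were examined in RNA-seq libraries of sorted mouse mammary epithelial cells with and without Glis2. They were taken as every row of the count table, of 54418 in all, whose gene symbol was Hoxa, Hoxb, Hoxc or Hoxd followed by a number alone, a rule that reads symbols and not counts. Cluster A held 11 of them (chr6:52155590-52260880), cluster B 10 (chr11:96194316-96368256), cluster C 9 (chr15:102921103-103036852) and cluster D 9 (chr2:74668310-74765142), in coordinates of the mouse build GRCm38. A gene was called detected when at least 3 of the 6 libraries held 10 or more of its counts, and 26 of the 39 were.

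Hox genes encode homeodomain transcription factors that give cells of the embryo their position along the body axis. Mammals carry them in clusters on separate chromosomes, and genes at the same place in different clusters form a paralog group that is numbered from the end of the cluster used in the head and neck (low numbers) to the end used in the tail, limb tips and genital region (high numbers). Polycomb proteins keep the genes silent and Trithorax proteins keep them active, so that many adult cells retain a record of their position. In the mouse, loss of the paralog group 9 genes impairs the mammary gland in pregnancy, and Hoxc6 and Hoxc8 have been linked to its growth and its placement.

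Glis2 encodes a zinc finger protein related to the GLI factors. Cells came from 4-week-old C57BL/6 females that were Glis2+/+ (wild type, 3 mice) or Glis2-/- (germline mutant, lacking a working allele in every cell, 3 mice), with 1 library per mouse, and values are given in the order of replicates 1 to 3. Glands were dissociated overnight, stained for TER-119, CD31 and CD45 to mark blood and vessel cells and for CD24 and CD49f to mark epithelium, and sorted. A stranded kit for small inputs turned 1 ng of RNA per mouse into a library, and the values are Salmon's estimated counts per gene.

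Total counts were between 24996524 and 31393917 per library, at which a gene at 0 could hold up to 0.0956 to 0.12 CPM, counts scaled to library size (3 counts, counting error only). Glis2 had 671, 663 and 510 counts in wild-type and 252, 509 and 510 in mutant libraries. Scaled for depth, all Glis2-/- libraries lay below all Glis2+/+ libraries, by a log2 fold change of -0.57 ± 0.22 (SE, n = 3 mice per genotype; edgeR adjusted p = 0.906). These are counts over the whole gene, and whether the remaining ones came from transcripts of the mutant allele was not tested. Keratin 8 and keratin 14, which mark luminal and basal epithelium, were abundant in every library, and fibroblast markers were abundant as well: the 10 listed summed to between 2490 and 8310 CPM (TMM scaling). In bulk RNA, fewer cells of a type and less RNA per cell cannot be told apart.

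Detection followed position in the clusters. Of the 27 genes in paralog groups 1 to 9, 23 were detected, and of the 12 in groups 10 to 13, 3 were: Hoxa10, Hoxc10 and Hoxd10. At this minimum every gene of groups 4 to 10 was detected (22 of 22), and none of groups 11 to 13 was (0 of 9). At the other end, Hoxa2, Hoxb1, Hoxd1 and Hoxd3 were not detected. Among all protein-coding genes, 15208 of 21864 (69.6%) met the same minimum.

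Cluster A had 8 of 11 genes detected, cluster B 8 of 10, cluster C 6 of 9 and cluster D 4 of 9. Hoxa11, Hoxa13, Hoxb13, Hoxc12, Hoxd1 and Hoxd12 had 0 counts in all 6 libraries. Hoxc11, Hoxc13 and Hoxd13, which in embryos act at the far end of the body axis, had 3, 15 and 1 counts over all 6 libraries. Hoxd11 was nearer the minimum, with wild-type counts of 13, 0 and 0 and mutant counts of 22, 0 and 7. Hoxa2, Hoxb1, Hoxd3 and Hoxd11 each reached 10 counts in 2 libraries, 1 fewer than required. Hoxa4, Hoxa5, Hoxa10, Hoxb8, Hoxb9 and Hoxc5 stood just inside the rule, each with 10 or more counts in exactly 3 libraries. Only 10 genes reached 10 counts in all 6 libraries: Hoxa7, Hoxb2, Hoxb3, Hoxb4, Hoxc4, Hoxc6, Hoxc8, Hoxd4, Hoxd8 and Hoxd10.

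**Figure D1:**
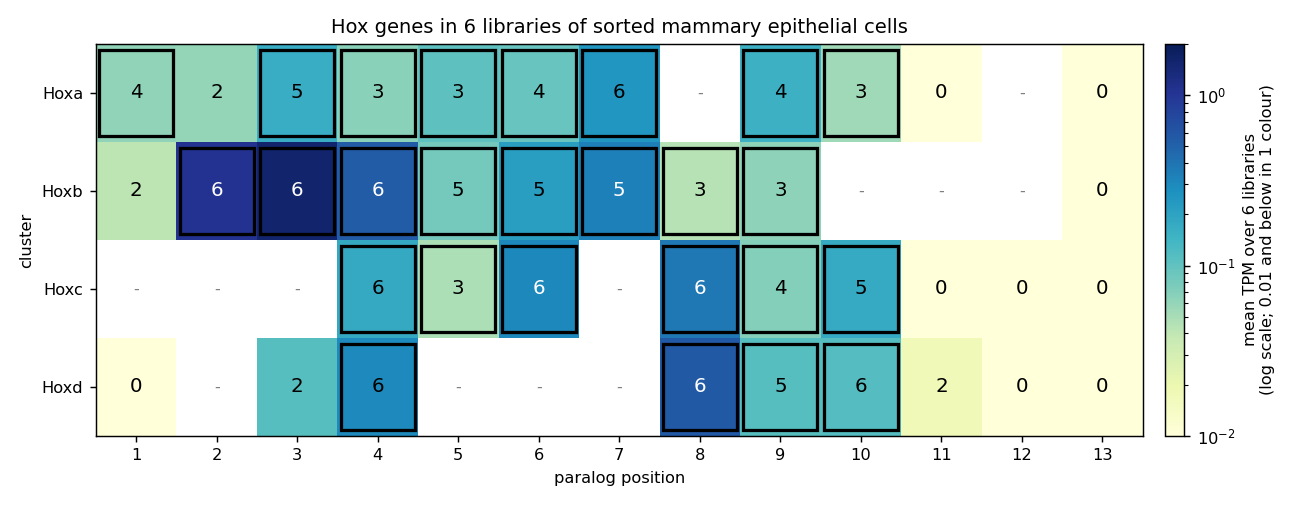
Each cell is 1 Hox gene, by cluster (rows) and paralog position (columns); colour is mean TPM over 6 libraries on a log scale, the number is how many libraries held 10 or more counts, a black frame marks a detected gene and a dash a gene the cluster lacks. The frames fill positions 4 to 10, and positions 11 to 13 hold 0 frames.

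Levels were compared between genes as TPM, which is scaled for transcript length. They were low: a single small RNA locus, Gm23935, took 83.0% to 85.7% of the TPM of each library, and the median over coding genes with any count was 1.2 TPM. Hoxb3 was highest, with 1.59, 1.6 and 0.827 TPM in Glis2+/+ and 2.13, 1.69 and 1.67 TPM in Glis2-/- libraries, and its mean of 1.58 TPM exceeded that of 54.3% of coding genes. Hoxb2 followed at a mean of 1.07 TPM and was below Hoxb3 in 5 of 6 libraries, the third Glis2+/+ library being the exception. Hoxd8 (mean 0.577 TPM) and Hoxb4 (0.549 TPM) came next, and their ranges over libraries overlapped. Highest in the other clusters were Hoxc8 (0.377 TPM) and Hoxc6 (0.31 TPM) in cluster C, and Hoxa7 (0.249 TPM) and Hoxa3 (0.164 TPM) in cluster A. The paralog group 9 genes had means of 0.152 (Hoxa9), 0.0643 (Hoxb9), 0.0687 (Hoxc9) and 0.112 TPM (Hoxd9), and ranges that overlapped one another.

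Cluster B held 5905 of the 9959 Hox counts in the study, cluster C 1455, cluster D 1404 and cluster A 1195. Hoxb2, Hoxb3 and Hoxb4, neighbours in cluster B that were singled out after their values were seen, held between 35.9% and 63.9% of the Hox counts of a library. These 3 genes summed to 33.7, 24.6 and 21.6 CPM in Glis2+/+ and 30.5, 28.7 and 31.9 CPM in Glis2-/- libraries. The highest was the first Glis2+/+ library and the lowest the third. The other 36 Hox genes summed to 41.1, 13.9 and 38.7 CPM in Glis2+/+ and 21.9, 19 and 39.7 CPM in Glis2-/- libraries, a wider range with the second Glis2+/+ library lowest. In that library 15 of the 39 genes reached 10 counts, against 18 to 27 in the other 5, while Hoxb3 had 378 counts there, more than in the third Glis2+/+ library.

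The 10 fibroblast markers summed to 7950, 2490 and 8310 CPM in the Glis2+/+ and 4550, 2760 and 6310 CPM in the Glis2-/- libraries. In each genotype the library with the lowest fibroblast sum also had the lowest sum of the other 36 Hox genes. The sum of Hoxb2, Hoxb3 and Hoxb4 was lowest there too in Glis2-/- (28.7 CPM) but not in Glis2+/+ cells. All 10 fibroblast markers were measured in every library, none at 0, and Col3a1, a fibrillar collagen, was the most abundant, from 30837 to 113852 counts. Endothelial markers (6 genes) summed to 650, 120 and 460 CPM in Glis2+/+ and 407, 186 and 665 CPM in Glis2-/- libraries. The 5 adipocyte markers summed to 309, 52.3 and 208 CPM in Glis2+/+ and 161, 94.8 and 263 CPM in Glis2-/- libraries. Within each genotype both lists ordered the libraries as the other 36 Hox genes did, and fibroblast markers did so in Glis2-/- cells only. The 10 luminal markers summed to 4150, 6950 and 5860 CPM in Glis2+/+ and 6140, 7240 and 4090 CPM in Glis2-/- libraries, and were highest in the second library of each genotype. The part of these cell types in the Hox levels was not tested.

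**Figure D2:**
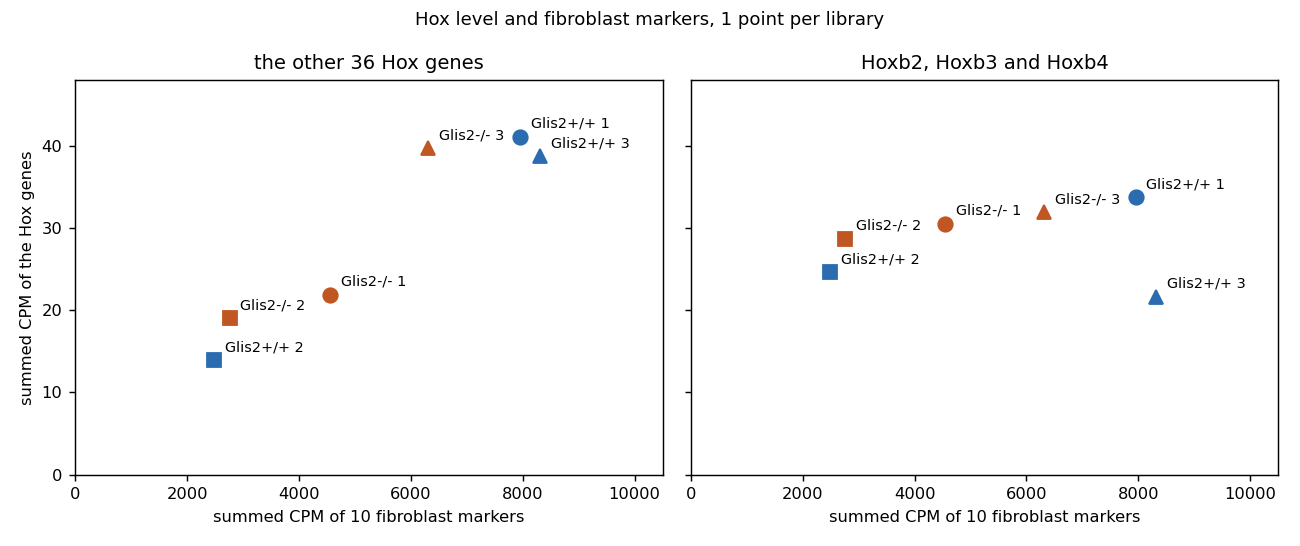
Each point is 1 library (blue Glis2+/+, orange Glis2-/-; circle, square and triangle are replicates 1, 2 and 3), with the summed CPM of 10 fibroblast markers on the x axis and the summed CPM of Hox genes on the y axis. The other 36 Hox genes (left) spread from 13.9 to 41.1 CPM and Hoxb2, Hoxb3 and Hoxb4 (right) from 21.6 to 33.7 CPM.

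The comparison of Glis2-/- with Glis2+/+ cells asked whether Hox genes changed without Glis2. None of the 27 Hox genes that passed the filter on low counts was called changed (edgeR quasi-likelihood test, adjusted p of at most 0.05 and log2 fold change of at least 0.58 in size), nor was any other gene (0% of 21236 tested; lowest adjusted p 0.392). At an unadjusted p under 0.05 stood 1 of the 27, Hoxc5, where 5.32% of all genes tested did (1130 genes). The tested set was the 26 detected genes and Hoxa2. Of the 27, 11 had a higher and 16 a lower fitted level in Glis2-/- cells, with a median log2 fold change of -0.14. Over all genes tested the median was 0.01 and 51.6% were higher. By DESeq2 with the shrinkage of apeglm, 45 of 37074 genes (0.121%) and 0 of 33 Hox genes were called.

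Cluster sums overlapped between the genotypes. Cluster A summed to 7.14 ± 4.27 CPM in Glis2+/+ and 6.58 ± 4.4 CPM in Glis2-/- cells (mean ± SD, n = 3 mice each), and cluster B to 31.6 ± 8.28 and 36.7 ± 3.32 CPM. Cluster D summed to 8.28 ± 4.19 and 7.87 ± 3.2 CPM. The ratio farthest from 1 was that of cluster C, at 10.9 ± 4.61 CPM in Glis2+/+ and 6.08 ± 1.86 CPM in Glis2-/- cells, a ratio of 0.557, and there too the second Glis2+/+ library (5.78 CPM) lay inside the Glis2-/- range of 4.47 to 8.12 CPM. Over all 39 genes the sums were 57.9 ± 18.2 and 57.2 ± 12.6 CPM, a ratio of 0.988. The ratio of cluster C stayed below 1 without each mouse in turn (0.451 to 0.674). That of cluster A, 0.922, fell to 0.566 without the third Glis2-/- library and was 1.07 to 1.16 without the first or the third Glis2+/+ library and without the first or the second Glis2-/- library. That of cluster D, 0.951, was 1.26 without the first Glis2+/+ and 1.11 without the second Glis2-/- library.

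**Figure D3:**
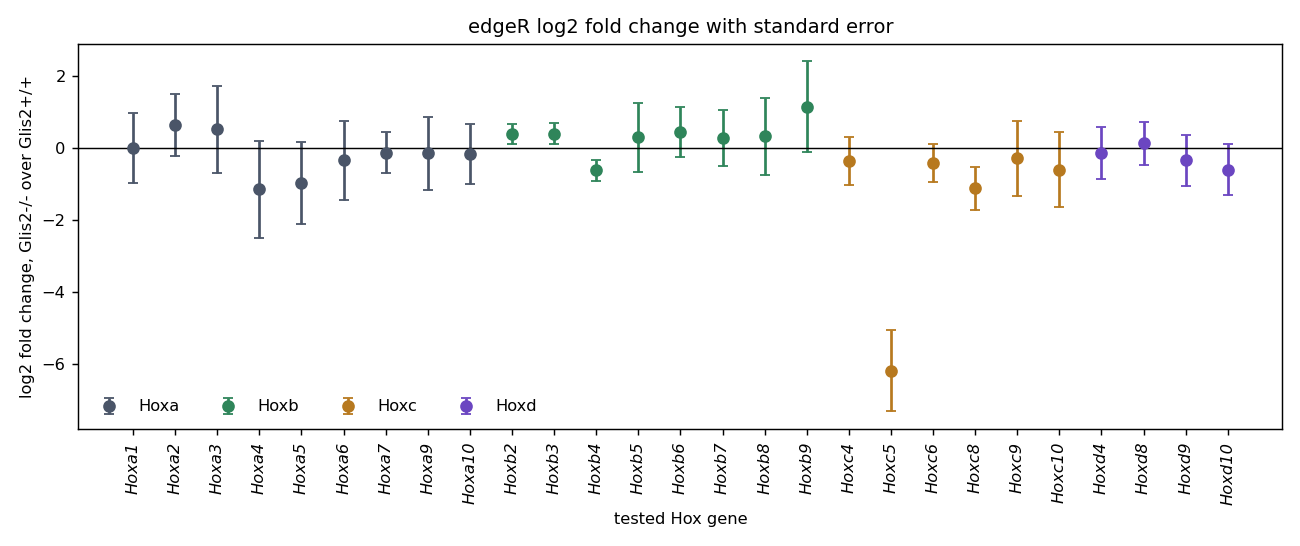
Points are the edgeR log2 fold changes (Glis2-/- over Glis2+/+) of the 27 tested Hox genes in cluster order, with standard errors as bars and 1 colour per cluster. Hoxc5 stands at -6.19, and the others lie between -1.15 and 1.15.

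Hoxc5, which in embryos patterns the neck and upper trunk, had 45, 37 and 18 counts in wild-type and 0, 0 and 1 in mutant libraries. The genotypes did not overlap. It met the detection minimum and the filter on low counts through the Glis2+/+ libraries alone, so a difference between the genotypes was built into its passing, and it was not tested where 10 counts in every library were required. In all, 100 counts stood against 1, a ratio of 0.00991 per unit of depth with a 95% interval of 0.000248 to 0.0565 (exact conditional Poisson, counting error only). The edgeR log2 fold change was -6.19 ± 1.13 (SE) with an adjusted p of 0.849, and it depends on the prior count that edgeR adds to genes near 0. Without the filter on low counts the edgeR adjusted p was 0.0717. DESeq2 gave an adjusted p of 0.0236 with an unshrunken log2 fold change of -6.53, so that without shrinkage it called Hoxc5 as 1 of 48 genes (0.129%), while apeglm set the log2 fold change to about 0 and the size threshold was missed.

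The gene model that gave these counts is long. Hoxc5 runs from chr15:102967443-103017429 on the plus strand, a span that begins inside Hoxc10 and takes in Hoxc9, Hoxc8 and Hoxc6, because 1 of its 2 annotated transcripts starts far upstream. Of its 40-base words, 4.2% were shared with Hoxc10, where Salmon has to divide reads between the 2 genes by estimate. Hoxc10 itself had 50, 12 and 75 counts in wild-type and 1, 37 and 61 in mutant libraries. Both genes together held 95, 49 and 93 counts in wild-type and 1, 37 and 62 in mutant libraries, and these sums overlapped. The mean level of Hoxc5, 0.0475 TPM, exceeded that of 20.5% of coding genes.

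Its neighbours did not share the separation. Hoxc4, Hoxc6, Hoxc8, Hoxc9 and Hoxc10 together held 331, 128 and 359 counts in wild-type and 141, 124 and 253 in mutant libraries. Hoxc8, which takes part in the formation of the mammary line in mouse embryos, had 164, 44 and 156 counts in wild-type and 41, 31 and 101 in mutant libraries. Its log2 fold change was -1.12 ± 0.6 (SE; edgeR adjusted p = 0.92), and the second Glis2+/+ library lay among the Glis2-/- ones. Hoxc6, which is also linked to mammary development in mice, had 26, 46 and 49 counts in wild-type and 23, 29 and 43 in mutant libraries, a log2 fold change of -0.41 ± 0.53 (SE; edgeR adjusted p = 0.973).

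Hoxb4, best known for its part in blood stem cells, was the only other gene whose genotypes did not overlap; among all genes tested 11.7% did not (2491), and among the Hox genes 2 of 27. It had 266, 177 and 186 counts in wild-type and 89, 157 and 171 in mutant libraries. Scaled for depth these were 7.32 ± 1.22 and 4.75 ± 1.04 CPM (mean ± SD, n = 3 mice each). The log2 fold change was -0.62 ± 0.28 (SE; edgeR adjusted p = 0.906). Without the second Glis2+/+ library, 3 of 30 Hox genes, Hoxb4 among them, stood at an unadjusted p under 0.05, against 6.03% of all genes. Hoxb4 did not reach that p without any other single mouse.

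The fitted changes of Hoxb3, the next gene on one side, and of Hoxb2 beyond it had the opposite sign, and neither passed the test. Hoxb2, a hindbrain gene in embryos, had 233, 149 and 196 counts in wild-type and 273, 202 and 280 in mutant libraries. Hoxb3 had 541, 378 and 182 counts in wild-type and 400, 500 and 546 in mutant libraries, the third Glis2+/+ library standing below the rest. The log2 fold changes were 0.39 ± 0.27 for Hoxb2 and 0.41 ± 0.31 for Hoxb3 (SE; edgeR adjusted p = 0.941 for both), and both genes overlapped between genotypes. Hoxb5, the next gene on the other side, had 37, 29 and 1 counts in wild-type and 25, 19 and 36 in mutant libraries, which overlapped too (log2 fold change 0.30 ± 0.96, SE; edgeR adjusted p = 0.985), and without the third Glis2+/+ library the log2 fold change was -0.25. Hoxb3os, a noncoding gene on the opposite strand that overlaps Hoxb2 and Hoxb3, had 225, 273 and 188 counts in wild-type and 199, 342 and 299 in mutant libraries. Whether the counting used the strand was not given in the sources used here, so reads of these genes and Hoxb3os may not have been told apart.

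**Figure D4:**
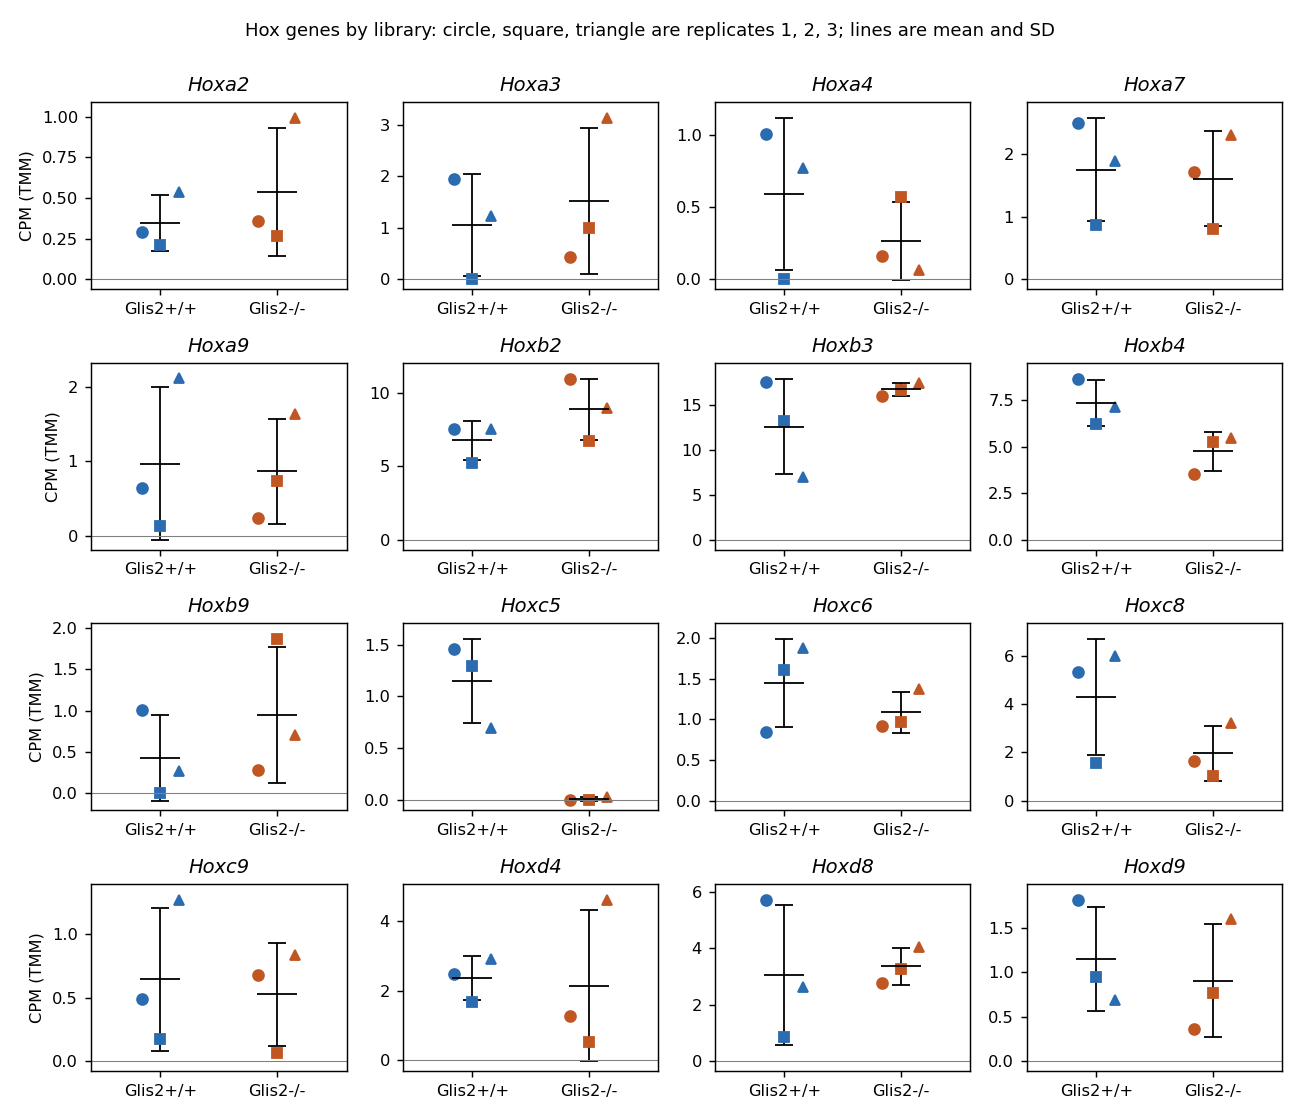
Each panel shows 1 Hox gene in CPM (TMM scaling, linear axes that differ between panels) for 3 Glis2+/+ (blue) and 3 Glis2-/- (orange) libraries, with replicates 1, 2 and 3 as circle, square and triangle and black lines for mean and SD. Only Hoxb4 and Hoxc5 have genotypes that do not overlap.

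Paralog group 9, the group with a known role in the mammary gland, did not separate the genotypes. Hoxa9 had 20, 4 and 55 counts in wild-type and 6, 22 and 51 in mutant libraries, and Hoxb9 had 31, 0 and 7 against 7, 56 and 22. Hoxc9 had 15, 5 and 33 against 17, 2 and 26, and Hoxd9 had 56, 27 and 18 against 9, 23 and 50. Each ranged at least 5.05-fold over the 6 libraries once scaled for depth. Their sum was 3.18 ± 1.68 CPM in Glis2+/+ and 3.25 ± 1.61 CPM in Glis2-/- cells (mean ± SD, n = 3 mice each), a ratio of 1.02. Hoxb9 had the highest fitted log2 fold change of the 27 tested Hox genes, 1.15 ± 1.26 (SE; edgeR adjusted p = 0.959), which is smaller than its own error. It was 2.78 without the first Glis2+/+ library and 0.21 without the second Glis2-/- library.

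In cluster A, Hoxa7 was the steadiest gene, with wild-type counts of 77, 25 and 49, mutant counts of 43, 24 and 72 and a log2 fold change of -0.12 ± 0.58 (SE). Hoxa3 had 60, 0 and 32 counts against 11, 30 and 98, and Hoxa4 had 31, 0 and 20 against 4, 17 and 2. Both were at 0 in the second Glis2+/+ library alone. Hoxa2 had 9, 6 and 14 counts in wild-type and 9, 8 and 31 in mutant libraries. The log2 fold changes of Hoxa2, Hoxa3 and Hoxa4 were 0.64 ± 0.86, 0.53 ± 1.21 and -1.15 ± 1.36 (SE), with edgeR adjusted p of 0.973, 0.98 and 0.966. That of Hoxa4 was -2.38 without the second Glis2-/- library and -0.55 without the first Glis2+/+ library, and those of Hoxa2 (-0.16) and Hoxa3 (-0.56) turned without the third Glis2-/- library. Hoxa2 shared 13.2% and Hoxa3 7.4% of their 40-base words with Gm28308, a transcript that reads through both genes.

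In cluster D, Hoxd8 had 176, 24 and 68 counts in wild-type and 69, 98 and 126 in mutant libraries. The Glis2+/+ libraries spanned all of the Glis2-/- ones, and the log2 fold change was 0.13 ± 0.6 (SE; edgeR adjusted p = 0.991). Hoxd4 had 76, 48 and 76 counts against 32, 16 and 144, a log2 fold change of -0.13 ± 0.71 (SE; edgeR adjusted p = 0.992). Here the third Glis2-/- library was highest and the second lowest of all 6. The counts of Hoxd4 and of Hoxd3 are uncertain, since 36.2% and 52.3% of their 40-base words were shared with Gm28230, a readthrough transcript of both. All 3 together held 104, 49 and 112 counts in wild-type and 54, 22 and 150 in mutant libraries, and overlapped. The remaining 11 tested genes, counting Hoxb5 given above, had log2 fold changes between -0.97 (Hoxa5) and 0.44 (Hoxb6), each with overlapping genotypes.

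The clusters also hold noncoding genes. Of 44 that were counted, 4 were tested, 0 were called and 27 were at 0 in all libraries, Hotair, an RNA of cluster C that acts on cluster D in human cells, among them. Hottip, at the far end of cluster A, had 2 counts in all. All 7 microRNA genes were at 0 in every library, including those for miR-10, next to paralog group 4, and miR-196, next to group 9. These libraries were not prepared for small RNA, so mature microRNAs were not measured. The mature sequences that RefSeq lists for build GRCm38.p6 are shown because they mark where these genes sit among the Hox genes and which share a seed, bases 2 to 8 in capitals. miR-10a lies at chr11:96317186-96317208 (plus strand) and miR-10b at chr2:74726074-74726096 (plus). miR-196a lies at chr11:96265187-96265208 (plus) and again at chr15:102973365-102973386 (plus), inside the span of Hoxc5. miR-196b lies at chr6:52230129-52230150 (minus).
miR-10a-5p: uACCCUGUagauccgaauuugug
miR-10b-5p: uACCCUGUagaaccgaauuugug
miR-196a-5p: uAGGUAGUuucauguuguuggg
miR-196b-5p: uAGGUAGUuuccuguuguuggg

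Both miR-10 genes share the seed ACCCUGU and both miR-196 forms the seed AGGUAGU. A full match to the miR-196 seed stood in the transcripts of 11 of the 39 Hox genes, against 16.7% of coding genes, and one to the miR-10 seed in 7 of 39, against 20.4%. Over its whole length miR-196a paired best with Hoxb8, at 21 of 22 bases in the untranslated part after the coding region (chr11:96284888-96284909, plus strand). The next best, in Hoxa4 and Hoxd8, paired at 15. The site is written here as in the transcript, with paired bases in capitals. Its base in small letters lies opposite the seed, so this site is not itself a full seed match.
Hoxb8 site: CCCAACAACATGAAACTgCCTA

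Hoxb8 had 17, 4 and 12 counts in wild-type and 3, 5 and 36 in mutant libraries. It was the lowest of the detected Hox genes per length, at a mean of 0.0438 TPM, and its genotypes overlapped (log2 fold change 0.33 ± 1.06, SE; edgeR adjusted p = 0.985). The sign turned without the second Glis2+/+ library (-0.068), without the third Glis2-/- library (-1.40) and with a replicate block (-0.10).

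RefSeq promoters, 250 bases before to 50 after a start site, were at hand for 22 of the 39 genes (24 promoters). They were rich in CpG, with a median of 14.5 against 7 over all 32851 promoters. The detected genes did not have the higher count: the 14 promoters of 13 detected genes had a median of 13.5 and the 10 of 9 undetected genes a median of 17.5. Hoxa13 had the most (45) and Hoxd4 and Hoxa9 were among the fewest (4 each). One promoter of a gene without overlap and 2 of genes at 0 in every library are shown with each CpG in capitals. They belong to Hoxb4 (chr11:96318017-96318316, plus strand, 14 CpG), Hoxd1 (chr2:74762730-74763029, plus, 29 CpG) and Hoxa13 (chr6:52260831-52261130, minus, 45 CpG), all of build GRCm38.p6.
Hoxb4: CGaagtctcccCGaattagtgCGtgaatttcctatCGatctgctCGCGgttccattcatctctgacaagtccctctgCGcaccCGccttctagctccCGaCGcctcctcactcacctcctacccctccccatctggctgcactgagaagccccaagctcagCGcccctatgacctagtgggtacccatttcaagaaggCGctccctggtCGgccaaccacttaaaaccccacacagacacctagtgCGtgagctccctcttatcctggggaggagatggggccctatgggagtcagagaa
Hoxd1: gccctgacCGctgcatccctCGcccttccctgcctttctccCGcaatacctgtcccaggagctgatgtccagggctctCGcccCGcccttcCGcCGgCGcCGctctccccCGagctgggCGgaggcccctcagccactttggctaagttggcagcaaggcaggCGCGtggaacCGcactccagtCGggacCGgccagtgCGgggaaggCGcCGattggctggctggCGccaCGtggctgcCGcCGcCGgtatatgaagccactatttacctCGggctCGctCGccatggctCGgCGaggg
Hoxa13: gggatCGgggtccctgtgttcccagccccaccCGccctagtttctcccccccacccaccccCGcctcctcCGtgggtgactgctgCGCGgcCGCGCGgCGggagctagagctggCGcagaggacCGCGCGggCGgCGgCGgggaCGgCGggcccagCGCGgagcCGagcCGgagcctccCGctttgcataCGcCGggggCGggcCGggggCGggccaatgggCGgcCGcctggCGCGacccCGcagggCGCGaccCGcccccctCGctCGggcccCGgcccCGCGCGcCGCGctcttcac

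The letters CCAAT, a box found in many promoters, stood on either strand in 15 of the 24 Hox promoters (62.5%, against 37.4% of all), the letters GGGCGG in 10 (41.7% against 35.7%) and TATAAA in 4 (16.7% against 13.6%). TGGGGGGT, taken here as the core that GLIS proteins prefer, was in 1, that of Hoxb1 (4.17% against 1.53%). GACCACCCA, a GLI site, was in 0 (0.25% of all). TGATTGAT, a site at which Hox and Pbx proteins bind together, was in 2 (8.33% against 0.75%), those of Hoxa2 and Hoxd11. These are matches of letters within 300 bases and say nothing of binding.

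Hox proteins bind DNA together with TALE homeodomain proteins. All 9 TALE genes listed were tested and 0 were called, with log2 fold changes between -0.57 (Pbx4) and 0.14 (Pbx2). Of the 8 ParaHox and Evx genes, relatives of the clusters, 0 passed the filter and 4 were at 0 in all libraries.

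Polycomb genes, the repressors of the clusters, gave 0 of 27 called, 16 higher and 11 lower, with a median log2 fold change of 0.07. Rbbp7, a histone-binding protein of several complexes, was highest at a mean of 23.5 TPM. Rnf2, a ubiquitin ligase of Polycomb complex 1, was the only one at an unadjusted p under 0.05, with 29.4 ± 1.56 CPM in Glis2+/+ and 36.9 ± 3.45 CPM in Glis2-/- cells (mean ± SD, n = 3 mice each; log2 fold change 0.33, edgeR adjusted p = 0.906).

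Of 15 Trithorax genes and other activators, 0 were called and 9 were lower, with a median log2 fold change of -0.07. At an unadjusted p under 0.05 stood 3, all with a lower level, where 5.32% of all genes tested did in either direction. Psip1, a chromatin reader that holds the MLL complex, was highest of the list at a mean of 18.2 TPM and had a log2 fold change of -0.26 ± 0.1 (SE). The values were -0.28 ± 0.09 for Hcfc1, a partner of histone methyltransferases, and -0.29 ± 0.11 for Dot1l, which methylates histone H3 in transcribed genes, and all 3 had an edgeR adjusted p of 0.906. Kmt2a, the MLL methyltransferase that maintains Hox expression, had a log2 fold change of 0.0015 ± 0.095 (SE). Of 12 regulators of Hox genes in embryos, 10 were tested and 0 were called. Egr2, a hindbrain activator of Hoxb2, was highest at a mean of 11.4 TPM, with 78.3 ± 7.09 CPM in Glis2+/+ and 97.7 ± 18.4 CPM in Glis2-/- cells. Rxra, a partner of retinoic acid receptors, had a log2 fold change of 0.26 ± 0.1 (SE; edgeR adjusted p = 0.906) and an unadjusted p under 0.05.

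Markers of the cells that the sort could hold were 0 called in each list by edgeR. All 8 basal markers had a higher level in Glis2-/- cells (median log2 fold change 0.42, 5 at an unadjusted p under 0.05; over all genes tested 51.6% were higher and 5.32% stood at that p in either direction), and 8 of 10 fibroblast markers had a lower one (median -0.39, 0 at that p). Leukocyte markers summed to 24.5 to 51.2 CPM in Glis2+/+ and 57.2 to 109 CPM in Glis2-/- libraries. Their median was 1.17, with 4 of 7 at an unadjusted p under 0.05, 3 of them higher, and Cd74, the invariant chain of MHC class II, was called by DESeq2. The 6 endothelial and 10 luminal markers had medians of -0.03 and 0.06, with 0 at an unadjusted p under 0.05. The 5 adipocyte markers had a median of -0.1, with 4 lower and 1 of these at that p. Of the adipocyte markers, Adipoq was at 0 in 1 library, Lep in 1 and Cidec in 2. All 5 skeletal muscle markers were lower (median -1.15, 1 at an unadjusted p under 0.05), at 7.6 to 44.5 CPM in sum. Their part in the Hox values was not tested.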

How the data were processed

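RNA-seq libraries of sorted mammary epithelial cells from 3 Glis2+/+ and 3 Glis2-/- mice were analysed, grouped by the genotype in the sample labels. The authors estimated counts with Salmon 1.2.1 (per the submitters' processing notes) on a transcriptome of mm10 and deposited the estimated counts as whole numbers; the authors also deposited log2(TPM + 1) values, which were converted back to TPM. Of 54418 identifiers, 54166 were matched to GENCODE M21 (GRCm38). Counts were rounded whole numbers as deposited. Total counts lay between 24996524 and 31393917.

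Genes were compared with edgeR 4.0.16 (R 4.3.3): filterByExpr (minimum count 10), TMM, quasi-likelihood test, Benjamini-Hochberg adjustment over all 21236 genes. Calls needed an adjusted p up to 0.05 and a log2 fold change of 0.58 or more in size. Each SE of a log2 fold change was calculated back from the test, as its size divided by the square root of the F value. Alternatives were DESeq2 1.42.0 with apeglm 1.24.0, its size factors, other filters, limma 3.58.1 on log2(TPM + 1) and log2(TPM + 0.1), a fit with a replicate block, and fits without each mouse; DESeq2 without shrinkage was added after seeing the data. Under DESeq2 the calls use the shrunken and the printed values the unshrunken log2 fold change. Detection was counted at 10 or more counts in at least 3 libraries. Shared sequence was counted as 40-base words found in transcripts of another gene.

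Per-library values are given for paralog group 9, Hoxc6, Hoxc8, the 2 detected genes of highest mean TPM per cluster, genes at an unadjusted p under 0.05, the 3 largest log2 fold changes in each direction and genes whose genotypes do not overlap. Hoxb5, Hoxb8, Hoxc10, Hoxb3os and the genes near the detection minimum were added after their values were seen. From the pathway lists, members at an unadjusted p under 0.05 and the member of highest mean TPM are named, except that 1 result this rule selects is not reported here; Kmt2a, Pbx2 and Pbx4 were added. The Hox genes and all lists were chosen with earlier results of these data known. Libraries differed by a chi-square per degree of freedom of at least 18.8, so none was a copy. The functions were tested on simulated data. P-values measure the spread between these mice.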

Additional observations from a re-analysis of the deposited data

How the results depend on the processing

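With 3 mice per genotype and a common biological coefficient of variation of 37.4%, small differences of genes with few counts were not detectable at this depth. Hox genes called stayed at 0 under every other setting tried. The exception was DESeq2 without shrinkage, added after seeing the data, which called 1 (Hoxc5) and 48 genes over all. The count over all genes was 0 by edgeR, 45 by DESeq2, 40 without a filter on low counts and 1 by limma on log2(TPM + 0.1), and 0 without each mouse in turn. Hox genes at an unadjusted p under 0.05 numbered 2 of 33 without the filter (5.36% of all genes tested). With at least 10 counts in every library, where Hoxc5 was not tested, they numbered 0 of 10 (6.12% of all). By limma on log2(TPM + 1) they numbered 2 of 27 (6.7% of all). Without each mouse they numbered 1 to 3, of 28 to 30 tested (3.61% to 6.11% of all). Hoxc5 was among them in each fit that tested it. All these fits reuse the same counts, and where Hoxc5 passed a filter it did so through the Glis2+/+ libraries alone. Hox genes higher in Glis2-/- cells were 3 of 10 with at least 10 counts in every library (49% of all genes tested). Without each mouse they were 7 to 17. They were 7 of 30 without the second Glis2+/+ library (51.7% of all genes). Without the third Glis2-/- library they were 7 of 29 (49.4%), and without the second Glis2-/- library 17 of 30 (49.9%). Their median log2 fold change ranged from -0.63 to 0.16. DESeq2 also called 1 leukocyte marker.

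Hox genes detected numbered 30 at 5 counts, 19 at 20 counts, 24 at 0.5 CPM, 10 with 10 counts in all 6 libraries and 20 to 26 without each mouse. The borders by paralog group moved with the minimum. Hoxd11 was detected at 5 counts, and Hoxa6 and Hoxb8 were not at 0.5 CPM. At 20 counts Hoxa4, Hoxa6, Hoxa10, Hoxb8, Hoxc5 and Hoxc9 were not detected. Log2 fold changes of single genes that changed sign when a mouse was left out included those of Hoxa9 (-0.98 to 1.13), Hoxc9 (-0.81 to 0.66), Hoxd9 (-1.03 to 0.14), Hoxa7 (-0.49 to 0.21), Hoxa3 (-0.56 to 1.31), Hoxd8 (-0.31 to 0.94), Hoxd4 (-1.40 to 0.33) and Hoxa2 (-0.16 to 1.09). So did those of Hoxa6 (-0.82 to 0.17), Hoxa10 (-0.92 to 0.17), Hoxb5 (-0.25 to 0.79), Hoxb6 (-0.031 to 0.89), Hoxb7 (-0.23 to 1.12), Hoxb8 (-1.40 to 0.78), Hoxc4 (-1.11 to 0.030) and Hoxc10 (-1.35 to 0.080). Hoxa4 (-2.38 to -0.55), Hoxa5 (-3.00 to -0.32), Hoxb2 (0.21 to 0.55), Hoxb3 (0.12 to 0.71), Hoxb4 (-0.75 to -0.45), Hoxb9 (0.21 to 2.78), Hoxc5 (-8.02 to -5.73), Hoxc6 (-0.70 to -0.17), Hoxc8 (-1.70 to -0.80) and Hoxd10 (-0.95 to -0.069) kept their sign without each mouse. Limma on log2(TPM + 1) gave -0.057 for Hoxd8 and -0.015 for Hoxb8, and on log2(TPM + 0.1) -0.15 for Hoxb8. The ratio of Glis2-/- to Glis2+/+ in summed level moved by less than the spread between mice. Without each mouse it was 0.566 to 1.16 for cluster A, 1.08 to 1.37 for B, 0.451 to 0.674 for C, 0.738 to 1.26 for D and 0.847 to 1.16 for all 39 genes. In summed TPM the ratios were 0.693, 1.1, 0.471, 0.659 and 0.836. The cause was not tested.

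The sample titles give only a replicate number, and whether same-numbered mice shared a batch was not tested. Deviations from the genotype means correlated by -0.02, 0.17 and 0.02 between same-numbered mice, which cannot exclude a shared batch. The second library of each genotype was lowest in fibroblast and highest in luminal markers. With a replicate block 0 genes were called. In that fit 2 of 27 Hox genes (Hoxc5 and Hoxc8) stood at an unadjusted p under 0.05, against 6.06% of all genes. Hoxa9 (0.084) and Hoxb8 (-0.10) changed direction there.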
